A study of Mus musculus with 110 samples.

Results

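Cell proliferation genes were followed here as 35 named genes, chosen by symbol as textbook markers of DNA replication and mitosis, by a rule that uses no measured value, although earlier results of these data were known when the list was drawn up. Each of the 35 symbols matched 1 row of the deposited count tables, which hold 56884 gene rows, and all 35 passed the filter on low counts in each tissue. By role, 10 members act at G1/S and in DNA replication (Mcm2, Mcm3, Mcm5, Mcm6, Pcna, Rrm2, Tyms, E2f1, Ccne1, Ccne2), 14 are mitotic regulators (Ccna2, Ccnb1, Ccnb2, Cdk1, Cdc20, Bub1, Bub1b, Aurka, Aurkb, Plk1, Nek2, Ttk, Ube2c, Foxm1) and 11 belong to the mitotic machinery or to chromosomes (Mki67, Top2a, Birc5, Cenpe, Cenpf, Kif11, Kif20a, Kif23, Tpx2, Nusap1, Prc1). The last 25 genes are called the mitotic members below.

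RNA was sequenced from liver, interscapular brown fat (iBAT), inguinal white fat (iWAT) and epididymal white fat (eWAT) of single-housed male C57BL/6N mice, 16 weeks of age at the end. All mice ate a diet with 0% cysteine for 7 days at 22 °C, holding either 0.86% methionine (Ctrl_RT) or 0.12% methionine (MetR_RT), and the groups Ctrl_CE and MetR_CE ate the same diets and then spent a further 24 h at 4 °C. The controls therefore also lacked dietary cysteine, and the cold groups were on their diets for the extra day as well. Replicates within a tissue were separate mice. The 4 tissues came from the same mice, so libraries of a mouse in different tissues are not independent. The tests used 105 of 110 libraries, which left 7 libraries per group except for 6 in Ctrl_RT and Ctrl_CE of iBAT, 6 in MetR_CE of iWAT, 4 in Ctrl_RT of eWAT and 6 in MetR_RT of eWAT.

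A cell that divides copies its DNA in S phase and separates the copies in mitosis. E2F factors switch on the replication genes at the G1/S boundary, whereas the kinase Cdk1 with its A and B cyclins, together with the factor Foxm1, runs the later mitotic programme, and most mitotic transcripts are kept only for the part of the cycle in which they are used. In adult fat and liver few cells divide: mature adipocytes are postmitotic, and dividing cells of fat are known mainly among stromal progenitors, endothelial cells and immune cells. In bulk tissue, fewer cells of a type and less RNA per cell cannot be told apart.

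Each liver library held 6987895 to 33444374 counts, each iBAT library 12672686 to 31232349, each iWAT library 16607493 to 33141066 and each eWAT library 22021114 to 33372110. The members were shallowly covered in liver and iBAT, where 16 and 14 of the 35 had a mean of under 10 raw counts per library. In iWAT none had, and in eWAT only Ttk had (8.88). The tissue labels matched their markers: the summed level of 6 hepatocyte markers was at least 47914 CPM in liver and at most 198 CPM in any other tissue, that of 6 brown adipocyte markers was at least 10554 CPM in iBAT and at most 8649 CPM elsewhere, and that of 6 adipocyte markers was at least 8690 CPM in each fat and at most 28.99 CPM in liver. Of the iBAT libraries, 3 carry a treatment tag of another group than their title. They were grouped by title, and the iBAT calls lost when groups follow the tag are named with the iBAT results.

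Upstream sequences of 29 of the 35 members were found in the RefSeq table (build GRCm38.p6), with none for Aurkb, Ccna2, Ccne2, Foxm1, Kif20a and Tpx2. The 250 bases before the start of 5 members are shown because these genes stand for the roles compared below: Mki67 and Top2a (chromosomes), Cdc20 (mitotic regulator), Mcm6 (replication) and Ccne1, which went the other way from the others in iWAT. Each is written 5′ to 3′ on the gene's strand, and capitals mark, on either strand, the motif of NF-Y (CCAAT), the core of the cell cycle genes homology region (TTTGAA) and a pair of E2F forms (TTCCCGC as the first and TTGGCGC as the second).
Mki67 (chr7:135716380-135716629, minus strand): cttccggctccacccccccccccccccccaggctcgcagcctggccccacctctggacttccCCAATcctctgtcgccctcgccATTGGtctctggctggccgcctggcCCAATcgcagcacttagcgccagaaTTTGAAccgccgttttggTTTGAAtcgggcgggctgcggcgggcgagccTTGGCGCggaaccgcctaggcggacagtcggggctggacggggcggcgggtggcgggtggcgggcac
Top2a (chr11:99024190-99024439, minus strand): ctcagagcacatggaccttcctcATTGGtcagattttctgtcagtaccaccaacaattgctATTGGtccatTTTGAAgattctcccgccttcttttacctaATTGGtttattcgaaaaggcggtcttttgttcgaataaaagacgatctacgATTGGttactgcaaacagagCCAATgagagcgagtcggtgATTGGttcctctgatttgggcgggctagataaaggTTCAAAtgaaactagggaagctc
Cdc20 (chr4:118437344-118437593, minus strand): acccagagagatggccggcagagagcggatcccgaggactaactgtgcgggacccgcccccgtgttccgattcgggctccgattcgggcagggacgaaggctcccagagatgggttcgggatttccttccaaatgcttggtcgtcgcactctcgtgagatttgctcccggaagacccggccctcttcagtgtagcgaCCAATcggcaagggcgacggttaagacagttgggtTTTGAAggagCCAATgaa
Mcm6 (chr1:128359706-128359955, minus strand): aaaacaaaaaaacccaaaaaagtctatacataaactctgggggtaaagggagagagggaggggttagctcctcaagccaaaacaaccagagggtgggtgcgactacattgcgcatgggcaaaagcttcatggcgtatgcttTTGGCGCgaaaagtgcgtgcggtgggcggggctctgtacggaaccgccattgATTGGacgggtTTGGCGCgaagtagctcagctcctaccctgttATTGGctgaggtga
Ccne1 (chr7:38107491-38107740, minus strand): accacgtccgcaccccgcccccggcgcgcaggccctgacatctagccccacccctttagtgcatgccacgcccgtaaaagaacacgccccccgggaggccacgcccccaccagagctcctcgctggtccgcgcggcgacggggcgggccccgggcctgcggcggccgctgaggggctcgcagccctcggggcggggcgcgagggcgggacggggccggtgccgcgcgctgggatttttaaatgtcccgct

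Counting the first listed start of each gene, CCAAT stood in the 250 bases of 24 of the 29 members (82.8%) against 34.5% of all 27025 promoters. By role it was found in 11 of 11 mitotic regulators, 7 of 9 genes of the machinery and 6 of 9 replication genes. TTTGAA was found in 8 of 29 members (27.6%) and 16.3% of all promoters, and the same 8 members (27.6%) also held CCAAT, against 5.73% of all promoters with both. Prc1 has a second listed start, not counted here, whose window holds both. Of the E2F forms, TTGGCGC was found in 5 of 29 members (17.2%) and 2.05% of all promoters, and TTCCCGC in 0 of 29 and 3.84%. On the reverse strand the NF-Y motif can overlap the second E2F form. Ccne1 had none of the 4 motifs in this window. These are matches of letters and were not tested as binding sites.

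Against Ctrl_RT, iWAT had 31 of 35 members called at least once (beside 27.4% of all genes tested), liver 14 (20.6%), iBAT 6 (20.8%) and eWAT 0 (3.37%). In iWAT, 30 of 35 members were called lower in MetR_CE than in Ctrl_RT (a change of 1.5-fold or more with an adjusted p under 0.05 by edgeR's quasi-likelihood test), where 14.4% of all 26428 genes tested were called lower, and 1 was called higher (background 8.05%). In MetR_RT 12 were called lower (background 7.36%) and in Ctrl_CE 6 (background 9.94%), with none higher in either. The median log2 fold change of the 35 members was -1.39 in MetR_CE, -0.93 in MetR_RT and -0.65 in Ctrl_CE, beside -0.08, -0.03 and -0.11 over all genes tested. These 3 comparisons share the Ctrl_RT libraries, so that a high or low control library moves all of them together. Without Ctrl_RT replicate 1, the library with the highest mitotic members, 23 members were called in MetR_CE, 6 in MetR_RT and 1 (E2f1) in Ctrl_CE.

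By role, the mitotic members had lower medians than the replication members in iWAT. In MetR_CE 24 of 25 mitotic members were called lower with a median of -1.84 (log2), and 6 of 10 replication members with a median of -0.78. In MetR_RT the counts were 8 of 25 and 4 of 10, with medians of -1.05 and -0.57, and in Ctrl_CE 3 of 25 and 3 of 10, with medians of -0.71 and -0.41. The estimate lay below 0 for all 25 mitotic members in each of the 3 comparisons. The difference between the roles was not tested.

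Mki67, whose protein coats mitotic chromosomes and is the usual stain for cycling cells, had a lowest, median and highest level of 4.52, 8.61 and 20.98 CPM in Ctrl_RT, 0.681, 5.02 and 14.3 CPM in Ctrl_CE, 1.26, 4.11 and 7.63 CPM in MetR_RT and 0.927, 1.69 and 3.16 CPM in MetR_CE. All MetR_CE libraries lay under the lowest Ctrl_RT library, while the other groups overlapped Ctrl_RT. The fall in MetR_CE was 5.18-fold (log2 -2.37 ± 0.50 (SE, adjusted p = 0.00045)), and the estimates in MetR_RT (-1.18 ± 0.45 (SE, adjusted p = 0.061)) and Ctrl_CE (-0.64 ± 0.45 (SE, adjusted p = 0.3)) did not pass the test. Top2a, the topoisomerase that untangles sister chromosomes, ran from 4.13, 7.53 and 22.3 CPM in Ctrl_RT and 0.524, 5.51 and 13.2 CPM in Ctrl_CE to 1.895, 3.79 and 6.27 CPM in MetR_RT and 0.655, 1.35 and 2.90 CPM in MetR_CE (lowest, median, highest). As for Mki67, no MetR_CE library reached the lowest Ctrl_RT library, and Top2a was 5.69-fold lower in MetR_CE (-2.51 ± 0.53 (SE, adjusted p = 0.00043)). Birc5, the survivin subunit of the chromosomal passenger complex, was called lower in MetR_RT (-1.68 ± 0.47 (SE, adjusted p = 0.0093)), where its levels of 0.340, 0.811 and 1.27 CPM overlapped those of Ctrl_RT (1.19, 2.51 and 6.13 CPM) at the edge. In MetR_CE its levels were 0.187, 0.496 and 0.858 CPM, below every Ctrl_RT library.

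Among the mitotic regulators, Ccnb1, the B cyclin of Cdk1, had levels of 0.801, 1.18 and 5.38 CPM in Ctrl_RT, 0.0524, 0.680 and 2.74 CPM in Ctrl_CE, 0.551, 0.702 and 0.984 CPM in MetR_RT and 0.187, 0.303 and 0.739 CPM in MetR_CE. The Ctrl_RT and MetR_CE libraries did not overlap, and the fall was 4.53-fold (-2.18 ± 0.55 (SE, adjusted p = 0.0024)). The other B cyclin, Ccnb2, fell from 1.19, 2.49 and 6.08 CPM in Ctrl_RT to 0.583, 0.961 and 1.505 CPM in MetR_RT (-1.30 ± 0.37 (SE, adjusted p = 0.011)) and 0.399, 0.479 and 0.887 CPM in MetR_CE (-2.22 ± 0.41 (SE, adjusted p = 8.8e-05)). Its MetR_RT libraries overlapped Ctrl_RT and its MetR_CE libraries did not. Aurkb, the kinase of the chromosomal passenger complex, had 1.34, 3.12 and 4.53 CPM in Ctrl_RT, 0.367, 1.97 and 3.33 CPM in Ctrl_CE, 0.680, 1.38 and 2.14 CPM in MetR_RT and 0.515, 0.669 and 1.005 CPM in MetR_CE. It was the only member called in iWAT between MetR_CE and Ctrl_CE (-1.46 ± 0.38 (SE, adjusted p = 0.033), background 2.27% in either direction), and it was called lower against Ctrl_RT in MetR_RT (-1.14 ± 0.35 (SE, adjusted p = 0.017)) and MetR_CE (-2.04 ± 0.38 (SE, adjusted p = 0.0001)).

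Cdc20, which activates the anaphase-promoting complex, was called lower in all 3 comparisons against Ctrl_RT, as were the spindle protein Nusap1 and the replication genes Mcm2 and Mcm6, and no other member was. Its levels were 1.55, 2.83 and 9.01 CPM in Ctrl_RT, 0.419, 1.41 and 4.06 CPM in Ctrl_CE, 0.833, 1.55 and 2.25 CPM in MetR_RT and 0.625, 0.757 and 1.09 CPM in MetR_CE. The log2 fold changes were -1.01 ± 0.38 (SE, adjusted p = 0.041), -1.29 ± 0.38 (SE, adjusted p = 0.014) and -2.17 ± 0.42 (SE, adjusted p = 0.00015) in that order.

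**Figure D1:**
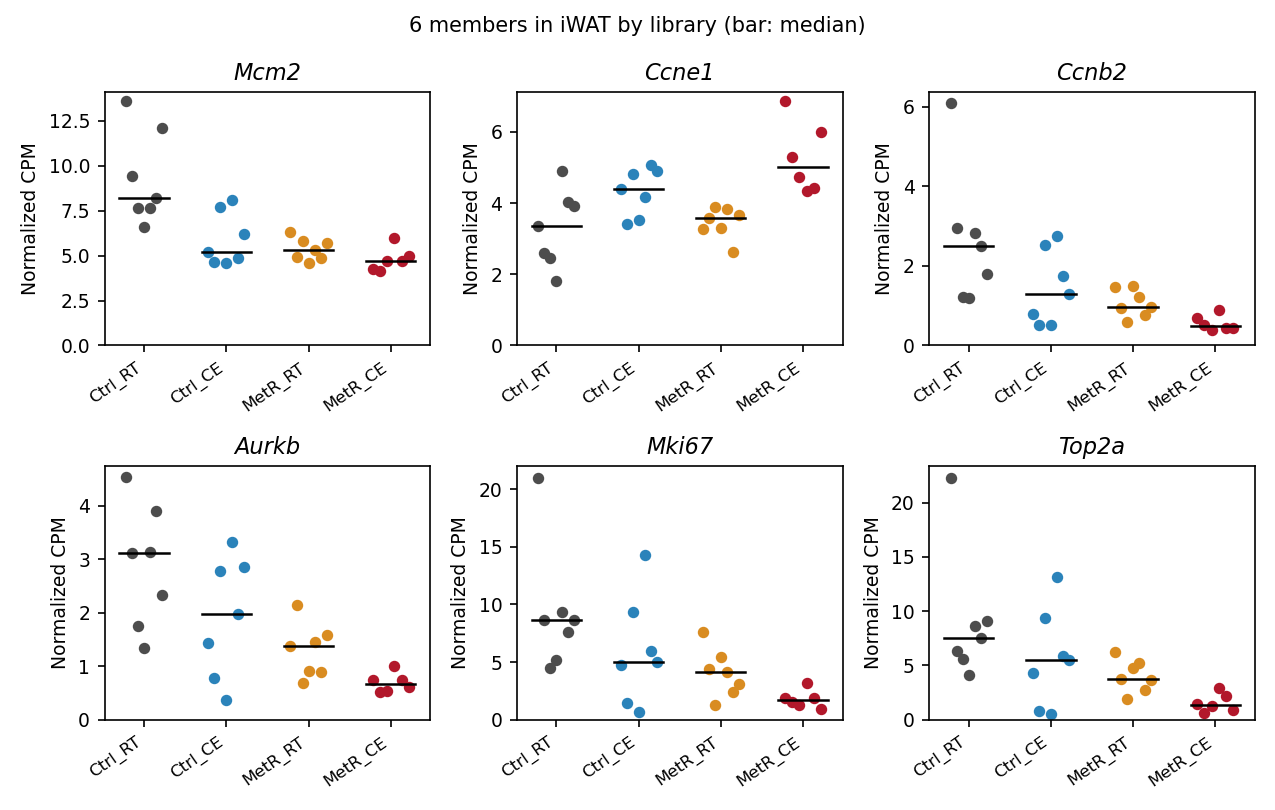
Normalized level (CPM, linear axis) of 6 members in each iWAT library of the 4 groups, with a bar at the group median. The MetR_CE libraries lie under every Ctrl_RT library for Mcm2, Ccnb2, Aurkb, Mki67 and Top2a and toward the top for Ccne1.

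The replicative helicase subunits showed smaller falls with less spread. Mcm2 had 6.61, 8.20 and 13.6 CPM in Ctrl_RT, 4.61, 5.22 and 8.07 CPM in Ctrl_CE, 4.57, 5.33 and 6.30 CPM in MetR_RT and 4.16, 4.71 and 6.00 CPM in MetR_CE. Neither MetR group overlapped Ctrl_RT, whereas Ctrl_CE did. The log2 fold changes were -0.66 ± 0.15 (SE, adjusted p = 0.0018) in Ctrl_CE, -0.80 ± 0.15 (SE, adjusted p = 0.00049) in MetR_RT and -0.95 ± 0.16 (SE, adjusted p = 3.5e-05) in MetR_CE. Mcm6 gave the same order, with -0.66 ± 0.17 (SE, adjusted p = 0.0044), -0.93 ± 0.17 (SE, adjusted p = 0.00036) and -0.96 ± 0.18 (SE, adjusted p = 0.00014), and its highest MetR_RT and MetR_CE libraries (9.14 and 9.08 CPM) were below its lowest Ctrl_RT library (10.6 CPM). Mcm3 was called lower in MetR_RT (-0.69 ± 0.14 (SE, adjusted p = 0.00092)), where it fell from 9.71, 12.3 and 16.6 CPM to 5.06, 8.31 and 9.21 CPM without overlap, and in MetR_CE (-0.63 ± 0.15 (SE, adjusted p = 0.0014)), where the groups overlapped. E2f1, the factor that turns on S-phase genes, had 9.80, 14.01 and 14.7 CPM in Ctrl_RT and 5.05, 6.52 and 7.34 CPM in MetR_CE, with no overlap (-1.05 ± 0.21 (SE, adjusted p = 0.00019)). It was also called lower in Ctrl_CE (-0.79 ± 0.20 (SE, adjusted p = 0.0027)) and not in MetR_RT (-0.46 ± 0.19 (SE, adjusted p = 0.093)).

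Pcna, the sliding clamp of DNA polymerases and the member with the highest counts, was called in no comparison of any tissue. In iWAT it nevertheless passed the adjusted p against Ctrl_RT in all 3 groups, with log2 fold changes of -0.29 ± 0.09 (SE, adjusted p = 0.021), -0.39 ± 0.09 (SE, adjusted p = 0.0029) and -0.30 ± 0.10 (SE, adjusted p = 0.017) for Ctrl_CE, MetR_RT and MetR_CE, which are under the required fold. Its levels were 19.6, 22.6 and 30.98 CPM in Ctrl_RT and 17.2, 18.9 and 23.2 CPM in MetR_CE, and these overlapped. Ccne1, the E cyclin that drives entry into S phase, was the only member called higher in iWAT. It had 1.81, 3.35 and 4.90 CPM in Ctrl_RT, 3.41, 4.40 and 5.06 CPM in Ctrl_CE, 2.62, 3.57 and 3.89 CPM in MetR_RT and 4.35, 5.003 and 6.87 CPM in MetR_CE. All MetR_CE libraries were above all MetR_RT libraries (0.61 ± 0.17 (SE, adjusted p = 0.037), background 1.88% in either direction), and MetR_CE was higher than Ctrl_RT (0.67 ± 0.17 (SE, adjusted p = 0.0027)) with some overlap. The members called neither way in MetR_CE were Pcna, Tyms (0.13 ± 0.12), Ccne2 (0.28 ± 0.13) and the centrosomal kinase Nek2 (-1.08 ± 0.43, adjusted p = 0.051).

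Cold added to the MetR diet (MetR_CE against MetR_RT) gave no member called lower in iWAT, although 13 had an unadjusted p under 0.05 and 24 of 25 mitotic estimates were below 0 (median -0.74). DESeq2 called 3 members in this comparison: Ccne1, which edgeR called higher, and E2f1 and Top2a. The MetR diet in the cold (MetR_CE against Ctrl_CE) gave 1 member lower, with 15 at an unadjusted p under 0.05 and a mitotic median of -1.09, and DESeq2 called 6. For the interaction of diet and temperature no member was called by edgeR or DESeq2 (background 1.65%), 5 had an unadjusted p under 0.05, and the median of the 35 was 0.15. A deviation from additivity of the log2 changes was thus not detected for any member, which does not show that the effects add.

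Other cell types moved in iWAT alongside the members. The summed level of 8 stromal progenitor markers was 7552, 14162 and 24201 CPM in Ctrl_RT, 1302, 4290 and 10899 CPM in Ctrl_CE, 2113, 2643 and 6834 CPM in MetR_RT and 1244, 1734 and 2109 CPM in MetR_CE. Of these 8 markers 7 were called lower in MetR_CE, 4 in MetR_RT and 5 in Ctrl_CE. The 8 macrophage markers summed to 1342, 1440 and 2200 CPM in Ctrl_RT and 211, 268.6 and 494 CPM in MetR_CE, and 7 were called lower and 1 higher there. Endothelial markers went the other way, at 349, 618 and 850 CPM in Ctrl_RT and 731, 798 and 973 CPM in MetR_CE, with 2 of 6 called higher. Brown adipocyte markers rose from 224, 552 and 1407 CPM to 4000, 5803 and 8649 CPM, B and T cell markers stayed between 3.30 and 10.7 CPM in every group, and skeletal muscle markers spread widely, with medians of 142 CPM in Ctrl_RT, 176 CPM in Ctrl_CE, 680 CPM in MetR_RT and 907 CPM in MetR_CE and 1 of 6 called higher in both MetR groups. Neutrophil markers summed to 2.74, 6.66 and 106 CPM in Ctrl_RT, 0.787, 1.16 and 49.6 CPM in Ctrl_CE, 0.655, 0.903 and 1.46 CPM in MetR_RT and 0.403, 0.913 and 1.34 CPM in MetR_CE, with 1, 4 and 4 of 6 called lower. Of 6 erythroid markers, 5 were called lower in MetR_CE, where their median sum was 1.67-fold lower than in Ctrl_RT. The part of any of these in the fall of the members was not tested.

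**Figure D2:**
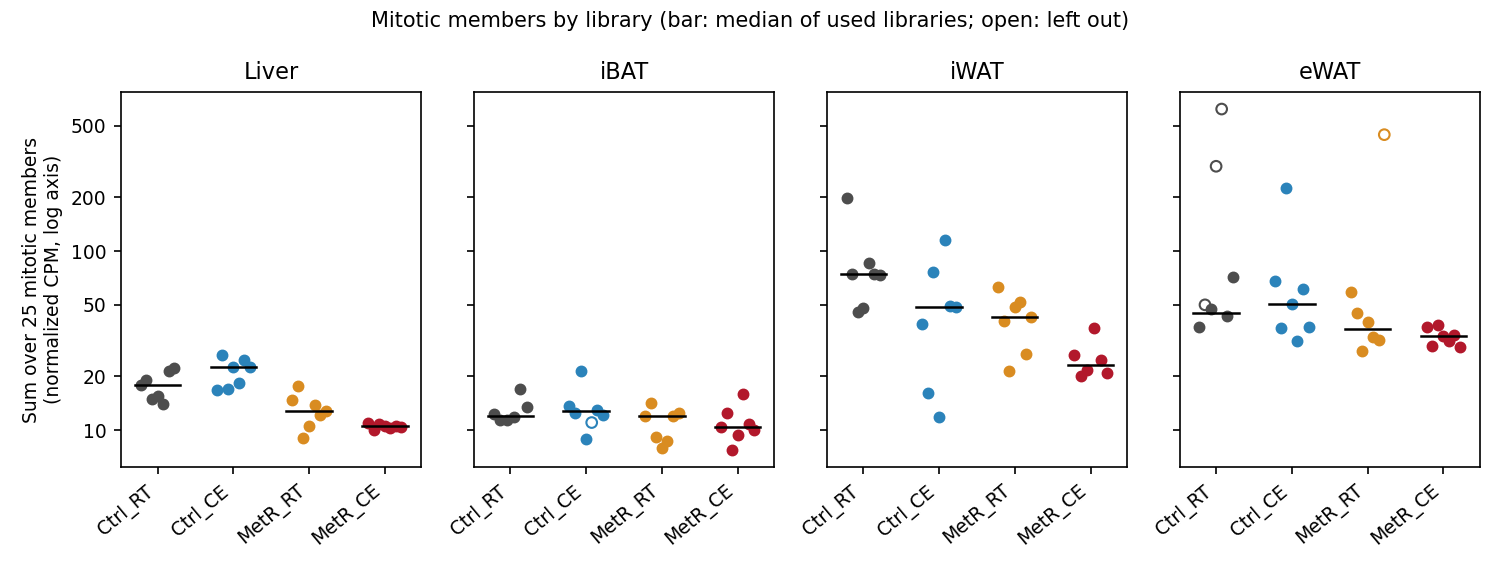
Summed level of the 25 mitotic members (CPM, log axis) in each library, by tissue and group, with all libraries of a tissue normalized together. Open points are libraries left out by the study, and a bar marks the group median of those used. In iWAT the medians fall from 74.1 CPM in Ctrl_RT to 23.1 CPM in MetR_CE. In eWAT 1 used Ctrl_CE library stands at 223.8 CPM, and some libraries left out stand higher, at up to 622 CPM.

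In eWAT no member was called against Ctrl_RT. For Ctrl_CE edgeR called 0 (background 2.42% in either direction), with 1 member at an unadjusted p under 0.05 and 1 called by DESeq2 (Aurkb). For MetR_RT edgeR and DESeq2 called 0, with 0 at an unadjusted p under 0.05 (background 0.115%). For MetR_CE edgeR called 0 (background 1.3%), with 9 at an unadjusted p under 0.05 and 1 called by DESeq2 (Mki67). These comparisons rest on 4 Ctrl_RT libraries, the smallest group of the series, so the lack of calls does not show that the members were unchanged. The direct comparison of the cold groups gave another picture: 18 of 35 members were called lower in MetR_CE than in Ctrl_CE (background 2.12%), with a median of -1.07 for the members and -0.01 for all genes tested, and none higher. By role 15 of 25 mitotic members (median -1.29) and 3 of 10 replication members (median -0.42) were called.

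This comparison leans on 1 library. Ctrl_CE replicate 3 had the highest summed mitotic level of the eWAT libraries used, 221 CPM against 65.7 CPM in the next of its group, and without it 8 members were called lower in place of 18, of which 7 were among the 18. Mki67 had 3.24, 4.61, 2.48 and 7.22 CPM in the 4 Ctrl_RT libraries, 2.69, 4.31 and 27.6 CPM in Ctrl_CE, 2.03, 2.37 and 5.96 CPM in MetR_RT and 0.869, 1.63 and 2.26 CPM in MetR_CE (lowest, median, highest). Every MetR_CE library was below every Ctrl_CE and Ctrl_RT library. Mki67 was 4.73-fold lower in MetR_CE than in Ctrl_CE (-2.24 ± 0.46 (SE, adjusted p = 0.0025)), and the estimate against Ctrl_RT was -1.43 ± 0.50 (SE, adjusted p = 0.14).

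For Top2a the Ctrl_RT libraries of eWAT had 2.699, 4.85, 2.85 and 6.62 CPM, Ctrl_CE 2.49, 4.91 and 28.4 CPM, MetR_RT 1.96, 2.18 and 4.42 CPM and MetR_CE 1.17, 1.95 and 2.78 CPM. The cold groups overlapped slightly, and the difference was -2.10 ± 0.45 (SE, adjusted p = 0.0035). Prc1, which bundles the microtubules of the central spindle, differed by -1.49 ± 0.35 (SE, adjusted p = 0.007), with 1.37, 2.63 and 10.4 CPM in Ctrl_CE and 0.823, 1.30 and 1.71 CPM in MetR_CE. Both genes had their highest level in Ctrl_CE replicate 3. Cenpf, a kinetochore protein, differed by -2.03 ± 0.49 (SE, adjusted p = 0.0088) between 0.373, 1.19 and 5.64 CPM and 0.205, 0.435 and 0.693 CPM, and Aurkb by -1.29 ± 0.32 (SE, adjusted p = 0.011) between 0.922, 1.71 and 7.11 CPM and 0.678, 1.05 and 1.28 CPM. Both overlapped between the groups. Ccnb1 (Ctrl_RT 0.405, 0.751, 0.485 and 1.44 CPM, Ctrl_CE 0.351, 0.806 and 3.69 CPM, MetR_CE 0.290, 0.343 and 0.870 CPM) did not pass the test (-1.27 ± 0.43 (SE, adjusted p = 0.058)).

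Of the replication members in eWAT, Mcm2 had 8.37, 8.02, 9.22 and 7.52 CPM in Ctrl_RT, 7.37, 8.90 and 20.3 CPM in Ctrl_CE, 6.57, 7.12 and 8.74 CPM in MetR_RT and 4.83, 6.31 and 7.90 CPM in MetR_CE, and it was lower in MetR_CE than in Ctrl_CE (-0.73 ± 0.18 (SE, adjusted p = 0.008)). Mcm5 and Rrm2 were the other replication members called, and without Ctrl_CE replicate 3 none of these 3 was called. Pcna, at 21.6, 22.5, 17.7 and 22.9 CPM in Ctrl_RT and 19.2, 20.9 and 24.5 CPM in MetR_CE, and Ccne1, at 1.49, 2.25, 2.94 and 4.59 CPM and 2.66, 5.05 and 5.62 CPM, were not called. Stromal progenitor markers summed to 1847, 2403 and 3855 CPM in Ctrl_CE and 1062, 1706 and 1972 CPM in MetR_CE, with 2 of 8 called lower, and 2 of 8 macrophage markers were called lower as well. Neither the interaction (background 2.3%, 7 members at an unadjusted p under 0.05) nor MetR_CE against MetR_RT (background 0.112%, 1 member) gave a called member by edgeR or DESeq2.

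**Figure D3:**
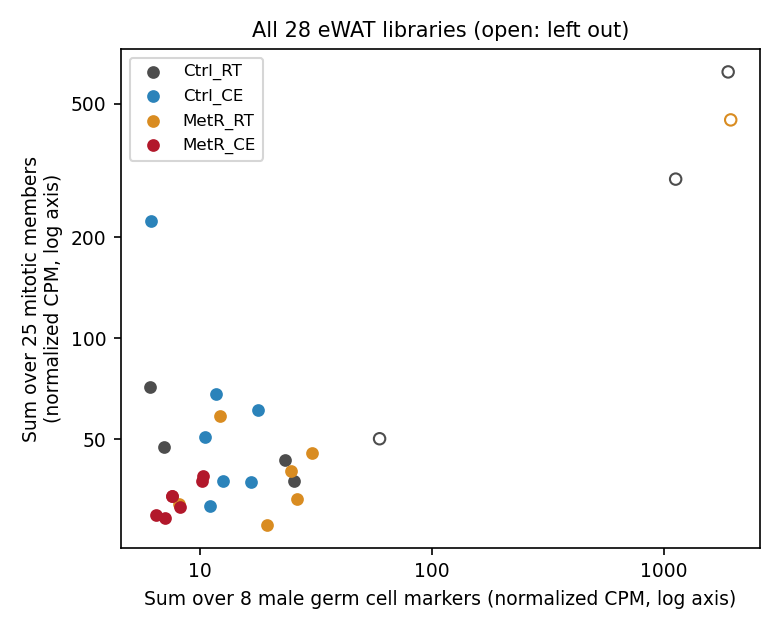
Summed level of the 25 mitotic members against that of 8 male germ cell markers (CPM, both axes log) in all 28 eWAT libraries, normalized together, with the libraries left out by the study set apart from those used. The 3 libraries at over 1000 CPM of germ cell markers have mitotic sums of 298, 447 and 622 CPM.

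Libraries that the study left out of eWAT had still higher levels. Of the 4 (3 Ctrl_RT and 1 MetR_RT), 3 held male germ cell markers (protamines, transition proteins and meiotic genes) at a sum of 1125, 1895 and 1944 CPM and mitotic sums of 298, 622 and 447 CPM, while the libraries used were at or under 30.2 CPM for the germ cell markers. The fourth had epididymis and ciliated cell markers at 8130 CPM with a mitotic sum of 50.1 CPM. When all 28 libraries were fitted, 20 members were called lower in MetR_CE against Ctrl_RT where 0 had been, and 3 in place of 18 between MetR_CE and Ctrl_CE. The number of members called in each of these eWAT comparisons therefore depended on leaving out these libraries. Their share in these sums by cell type was not tested.

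In liver members were called in both directions. Ctrl_CE gave 5 members higher than Ctrl_RT (background 7.28%) and none lower. MetR_RT gave 3 lower (background 4.02%) and none higher. MetR_CE gave 8 lower (background 7.22%) and 2 higher (background 6.25%), and the share called higher was near its background. The 8 were all mitotic and the 2 both of G1/S and replication. The difference between the roles was not tested. The median over the 35 members was 0.35, -0.34 and -0.65 (log2) in that order, beside -0.01, 0.00 and -0.04 for all genes tested. MetR_CE against Ctrl_CE gave 15 lower (background 4.1%), all mitotic, with a median of -1.24 over the 25 mitotic members. Without Ctrl_CE replicate 2, the library with the highest mitotic sum of its group, 10 members were called in that comparison and 3 in Ctrl_CE against Ctrl_RT.

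Nek2 was called in both directions in liver, with 1.74, 2.96 and 4.31 CPM in Ctrl_RT, 3.43, 4.39 and 5.10 CPM in Ctrl_CE, 1.16, 2.30 and 2.61 CPM in MetR_RT and 1.27, 1.68 and 2.45 CPM in MetR_CE. The cold groups did not overlap: all Ctrl_CE libraries were above all MetR_CE libraries (-1.33 ± 0.19 (SE, adjusted p = 2.8e-05)). Against Ctrl_RT the log2 fold change was 0.59 ± 0.19 (SE, adjusted p = 0.015) in Ctrl_CE and -0.74 ± 0.20 (SE, adjusted p = 0.0052) in MetR_CE, while the interaction (-0.80 ± 0.28 (SE, adjusted p = 0.13)) did not pass the test. No member was called for the interaction in liver by edgeR or DESeq2 (background 1.06%), 9 had an unadjusted p under 0.05, and the median was -0.55. Aurka, the kinase of the spindle poles, had 2.45, 3.17 and 3.65 CPM in Ctrl_RT, 1.94, 2.24 and 3.20 CPM in Ctrl_CE, 1.62, 2.56 and 2.63 CPM in MetR_RT and 1.03, 1.48 and 2.00 CPM in MetR_CE. Its MetR_CE libraries were below all Ctrl_RT libraries (-1.07 ± 0.16 (SE, adjusted p = 3.7e-06)), and it was lower than in Ctrl_CE as well (-0.70 ± 0.16 (SE, adjusted p = 0.0029)) with a small overlap.

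Mki67 and Top2a were low in liver, near or under 2 CPM in nearly every library. Mki67 had 0.315, 1.10 and 1.25 CPM in Ctrl_RT, 0.457, 1.01 and 2.14 CPM in Ctrl_CE, 0.149, 0.364 and 1.31 CPM in MetR_RT and 0, 0.217 and 0.482 CPM in MetR_CE. Every pair of groups overlapped, and Mki67 was called lower in MetR_CE against Ctrl_RT (-1.91 ± 0.50 (SE, adjusted p = 0.0039)) and against Ctrl_CE (-2.16 ± 0.49 (SE, adjusted p = 0.0031)). Top2a had 0.482, 0.780 and 1.58 CPM, 0.697, 1.01 and 1.86 CPM, 0.0744, 0.221 and 1.92 CPM and 0.0644, 0.238 and 0.539 CPM in the same order, with changes of -1.84 ± 0.51 (SE, adjusted p = 0.0054) and -2.39 ± 0.48 (SE, adjusted p = 0.00098). Here the cold groups did not overlap. Cdk1, the kinase that starts mitosis, was called lower in MetR_CE against Ctrl_RT (-1.55 ± 0.44 (SE, adjusted p = 0.0072)) and Ctrl_CE (-1.83 ± 0.42 (SE, adjusted p = 0.0038)), and Prc1 against Ctrl_RT (-1.24 ± 0.36 (SE, adjusted p = 0.0081)).

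Some of these calls rest on few reads. Cenpf, Ccnb1 and Ttk were called lower in MetR_CE than in Ctrl_CE with 3, 2 and 1 reads in all 7 MetR_CE livers together. Cenpf had 26 reads in the 7 Ctrl_CE livers, a ratio per total counts of 6.94 (95% exact interval 2.13 to 35.8). Ccnb1 had 19 reads in the 7 Ctrl_CE livers, a ratio per total counts of 7.60 (95% exact interval 1.83 to 67.3). Ttk had 13 reads in the 7 Ctrl_CE livers, a ratio per total counts of 10.4 (95% exact interval 1.56 to 442). The intervals cover counting error only, and none of the 3 was called by DESeq2 or after filterByExpr, a stricter filter on low counts. With filterByExpr the liver calls of Nek2 in Ctrl_CE, Ube2c in MetR_RT, and Prc1 and Ube2c in MetR_CE against Ctrl_RT were also lost. So were those of Aurkb, Cdc20, Prc1 and Tpx2 in MetR_CE against Ctrl_CE and of Ccnb2 in MetR_CE against MetR_RT. A call of Cdk1 in MetR_RT was gained. DESeq2 kept the calls that filterByExpr lost beyond these 3.

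Rrm2 and Ccne2 were called higher in the livers of both cold groups. Rrm2, the regulated subunit of ribonucleotide reductase, had 2.34, 4.26 and 11.1 CPM in Ctrl_RT, 8.57, 10.1 and 11.4 CPM in Ctrl_CE, 2.75, 8.46 and 14.7 CPM in MetR_RT and 7.14, 8.82 and 12.5 CPM in MetR_CE. One high Ctrl_RT library overlapped the cold groups, and the log2 fold changes were 0.98 ± 0.24 (SE, adjusted p = 0.0026) in Ctrl_CE and 0.84 ± 0.25 (SE, adjusted p = 0.0089) in MetR_CE. In MetR_RT at room temperature Rrm2 had an estimate of 0.66 ± 0.25 (SE, adjusted p = 0.058) and was called by DESeq2 and with the replicate block, and not by the fit used here. Ccne2 rose by 0.72 ± 0.24 (SE, adjusted p = 0.021) and 0.72 ± 0.24 (SE, adjusted p = 0.021), from 0.390, 1.10 and 2.00 CPM in Ctrl_RT to 1.44, 1.88 and 2.42 CPM in Ctrl_CE and 1.49, 1.92 and 2.58 CPM in MetR_CE. Its groups overlapped too. The spindle checkpoint kinase Bub1b, which did not overlap between Ctrl_RT (0.234, 0.560 and 0.646 CPM) and Ctrl_CE (0.697, 0.839 and 1.31 CPM), rose by 0.84 ± 0.30 (SE, adjusted p = 0.035), and the spindle motor Kif11 by 0.70 ± 0.26 (SE, adjusted p = 0.044). Both calls were lost without Ctrl_CE replicate 2.

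In MetR_RT livers the 3 members called lower were Nusap1 (-0.78 ± 0.24 (SE, adjusted p = 0.019)), the ubiquitin-conjugating enzyme Ube2c (-1.41 ± 0.44 (SE, adjusted p = 0.022)) and the motor Kif23 (-1.14 ± 0.38 (SE, adjusted p = 0.035)), all with overlapping groups. Between MetR_CE and MetR_RT 1 member, Ccnb2, was called (-1.07 ± 0.35 (SE, adjusted p = 0.029), background 5.18% in either direction). Pcna went up in liver by less than the required fold, by 0.40 ± 0.07 (SE, adjusted p = 9.0e-05) in MetR_RT and 0.29 ± 0.07 (SE, adjusted p = 0.0018) in MetR_CE, with 11.8, 13.4 and 13.6 CPM in Ctrl_RT and 14.6, 17.2 and 18.96 CPM in MetR_RT and no overlap between those groups. Mcm2 (1.74, 3.69 and 6.97 CPM in Ctrl_RT, 3.07, 3.47 and 4.31 CPM in MetR_CE) and Ccne1 (0.468, 1.25 and 2.20 CPM and 0.770, 1.19 and 1.68 CPM) were not called. The 8 macrophage markers summed to 237, 300 and 340 CPM in Ctrl_RT, 253.4, 486 and 1019 CPM in Ctrl_CE, 136, 203 and 243.2 CPM in MetR_RT and 261.02, 287.4 and 305 CPM in MetR_CE. Of these, 6 were called higher in Ctrl_CE against Ctrl_RT and 7 lower in MetR_CE against Ctrl_CE, while their sum in MetR_CE was near that in Ctrl_RT. Endothelial markers summed to 83.03, 93.4 and 108 CPM in Ctrl_RT, with medians 2.07-fold higher in Ctrl_CE and 1.93-fold higher in MetR_CE (4 and 5 of 6 called higher). Erythroid markers had a median 2.25-fold lower in MetR_CE (5 of 6 called lower), and neutrophil markers one of 0.768 CPM beside 3.98 CPM in Ctrl_RT (1 of 5 tested called lower). The part of these in the members' changes was not tested.

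In iBAT few members passed the test. Ctrl_CE gave 4 higher (background 4.97%) and none lower, MetR_CE gave 2 lower (background 10.3%) and none higher, and MetR_RT gave 0 by edgeR and DESeq2 with 4 at an unadjusted p under 0.05 (background 2.5%). The share of members called lower in MetR_CE was under that background. The median was 0.19 in Ctrl_CE, -0.20 in MetR_RT and -0.21 in MetR_CE, beside -0.08, -0.04 and -0.10 for all genes tested. Tyms, the thymidylate synthase that makes dTMP with a folate cofactor, stood out with 3.50, 3.88 and 4.41 CPM in Ctrl_RT, 6.68, 7.25 and 9.87 CPM in Ctrl_CE, 3.26, 4.03 and 5.13 CPM in MetR_RT and 5.12, 5.56 and 6.04 CPM in MetR_CE. No Ctrl_CE or MetR_CE library overlapped Ctrl_RT, and the log2 fold change was 0.96 ± 0.10 (SE, adjusted p = 1.3e-08) in Ctrl_CE and 0.50 ± 0.10 (SE, adjusted p = 0.00025), under the required fold, in MetR_CE.

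The helicase genes Mcm5 (1.52, 1.64 and 1.83 CPM in Ctrl_RT, 1.83, 2.65 and 3.75 CPM in Ctrl_CE) and Mcm3 (2.66, 3.73 and 4.76 CPM and 3.87, 5.53 and 7.14 CPM) rose in Ctrl_CE by 0.68 ± 0.18 (SE, adjusted p = 0.0033) and 0.60 ± 0.15 (SE, adjusted p = 0.0019), and Foxm1 by 0.99 ± 0.36 (SE, adjusted p = 0.036). Mcm5 did not overlap between the groups and Mcm3 did. Without Ctrl_CE replicate 3 only Tyms was called in Ctrl_CE, and with groups taken from the treatment tags Foxm1 and Mcm3 were not. Bub1b (0.624, 1.003 and 1.52 CPM in Ctrl_RT, 0.318, 0.561 and 0.829 CPM in MetR_CE) was lower in MetR_CE against Ctrl_RT (-0.81 ± 0.25 (SE, adjusted p = 0.011)) and against MetR_RT (-0.94 ± 0.24 (SE, adjusted p = 0.0037), background 8.53% in either direction). E2f1 (1.29, 1.68 and 1.76 CPM and 0.575, 0.985 and 1.51 CPM) was lower against Ctrl_RT (-0.68 ± 0.21 (SE, adjusted p = 0.013)) and Ctrl_CE (-0.87 ± 0.21 (SE, adjusted p = 0.013)), and Mcm5 against Ctrl_CE (-0.60 ± 0.17 (SE, adjusted p = 0.039), background 1.64% in either direction). Both genes overlapped between Ctrl_RT and MetR_CE. With groups by tag no member was called between MetR_CE and Ctrl_CE or between MetR_CE and MetR_RT, so that these calls of Bub1b, E2f1 and Mcm5 were lost, and that of Mcm5 was also lost without the 3 libraries concerned, without Ctrl_CE replicate 3 or with no filter. The calls of Bub1b and E2f1 against Ctrl_RT were kept in each of these.

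Other members of iBAT were at low levels: Mki67 had 0.0782, 0.458 and 0.550 CPM in Ctrl_RT and 0.347, 0.675 and 2.19 CPM in Ctrl_CE (1.03 ± 0.53 (SE, adjusted p = 0.14)), and Top2a 0.234, 0.604 and 1.42 CPM and 0.0992, 0.970 and 2.10 CPM (0.51 ± 0.53 (SE, adjusted p = 0.51)). Ccnb1 was under 0.4 CPM in every library used. Mcm2 (3.01, 3.63 and 4.11 CPM in Ctrl_RT), Pcna (9.90, 11.1 and 12.7 CPM) and Ccne1 (1.25, 1.84 and 3.07 CPM) were called in no comparison. The interaction gave 0 members by edgeR and DESeq2 (background 0.372%), with 3 at an unadjusted p under 0.05. In MetR_CE 6 of 8 stromal progenitor markers and 5 of 8 macrophage markers were called lower.

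**Figure D4:**
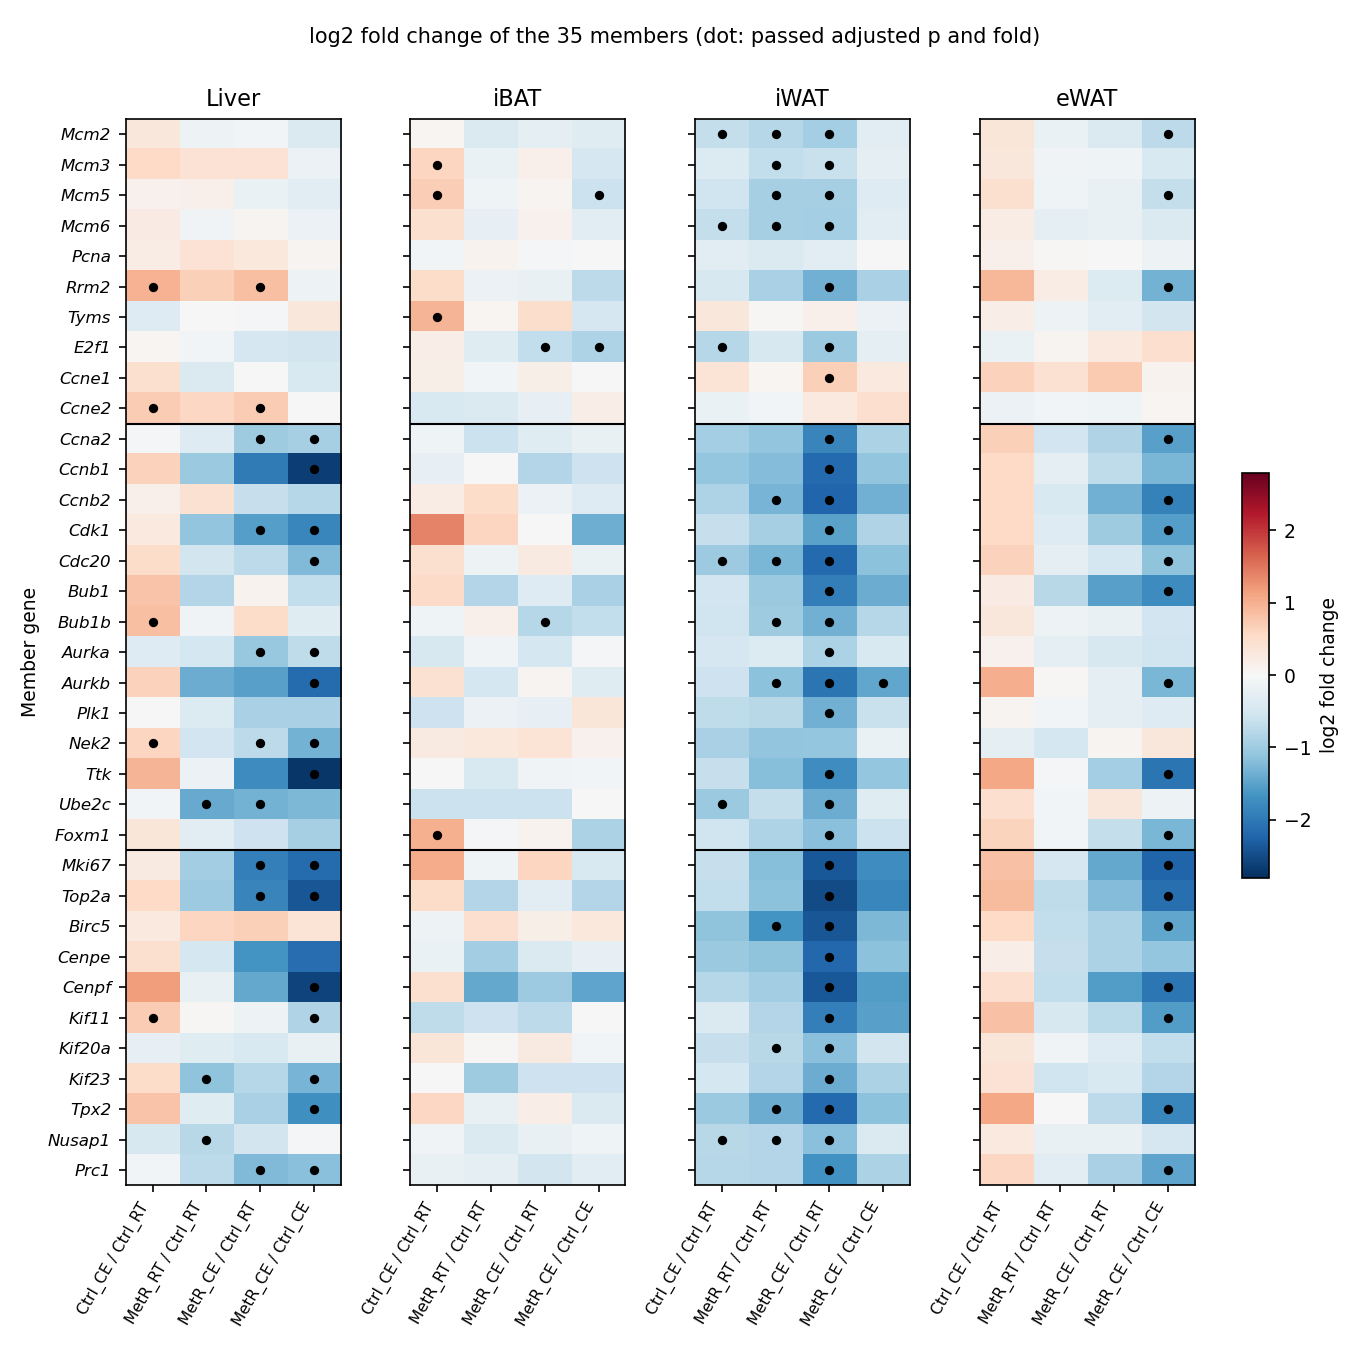
Log2 fold change of each of the 35 members (rows, by role) in each tissue, colour from blue (lower) to red (higher). A mark stands on members called. Columns are Ctrl_CE, MetR_RT and MetR_CE against Ctrl_RT, and MetR_CE against Ctrl_CE. The iWAT column of MetR_CE against Ctrl_RT is blue for nearly all mitotic members with 31 marks. In eWAT the columns against Ctrl_RT have no mark, and that of MetR_CE against Ctrl_CE has 18.

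Whether an effect differed between tissues was tested on the difference itself in joint fits, which did not model the mouse shared by the tissues. Between iBAT and iWAT 14 members differed in their response to MetR_CE against Ctrl_RT (15.6% of all genes tested in both), 9 in Ctrl_CE (13.1%) and 2 in MetR_RT (5.97%). A limma fit with the mouse as a block called 9 in place of 14. For Cdc20 the iBAT log2 fold change was above that of iWAT by 2.39 ± 0.48 (SE, adjusted p = 0.00014), and for Mki67 by 2.94 ± 0.77 (SE, adjusted p = 0.0032). Mki67 stood apart in single libraries on both sides. In iBAT these were MetR_CE replicate 5 (2.02 CPM, next 0.572) and Ctrl_RT replicate 4 (0.0782 CPM, next 0.43). In iWAT it was Ctrl_RT replicate 1 (20.98 CPM, next 9.32). No joint fit was rerun with a library left out. Liver and iWAT differed in 8 members for MetR_CE (21.8%), 11 for Ctrl_CE (18.8%) and 5 for MetR_RT (11.6%). In those pairs, the share of members for MetR_CE was above the background between iBAT and iWAT and near it between liver and iWAT.

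The white fats differed in 5 members for MetR_CE (13.1%), 2 for Ctrl_CE (4.11%) and 0 for MetR_RT (3.25%). The log2 fold change in iWAT minus that in eWAT was -1.33 ± 0.36 (SE, adjusted p = 0.0058) for E2f1 and -1.75 ± 0.55 (SE, adjusted p = 0.019) for Aurkb in MetR_CE, and -0.98 ± 0.25 (SE, adjusted p = 0.015) for Mcm2 in Ctrl_CE. For Mcm2, Ctrl_CE replicate 3 of eWAT stood at 20.3 CPM (next 10.6). Its iWAT call in Ctrl_CE was lost without Ctrl_RT replicate 1. The difference was not tested without these libraries. Most mitotic members were called against Ctrl_RT in iWAT and none in eWAT. A difference between these depots was nevertheless shown for only 5 members in MetR_CE, a share near the 13.1% of all genes tested. Liver and iBAT differed in 3 members for Ctrl_CE (17% of all genes), 1 for MetR_RT (5.42%) and 3 for MetR_CE (15.8%). Between liver and eWAT the number was 1 for Ctrl_CE (10%), 0 for MetR_RT (2.88%, with 4 members at an unadjusted p under 0.05 and 0 by limma) and 0 for MetR_CE (9.05%, with 8 and 2). Between iBAT and eWAT it was 1 for Ctrl_CE (7.18%), 0 for MetR_RT (0.25%, with 0 and 0) and 1 for MetR_CE (8.8%). The log2 fold change of Tyms was higher in iBAT than in eWAT for Ctrl_CE (0.76 ± 0.17 (SE, adjusted p = 0.0011)) and MetR_CE (0.82 ± 0.16 (SE, adjusted p = 0.0003)).

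Across all comparisons and tissues 34 of 35 members were called at least once, all but Pcna. Of these, 16 were called in 3 tissues, 10 in 2 and 8 in 1, and no member in all 4. Of the 19993 genes tested in every tissue, 51.3% were called at least once, 6.39% in 3 tissues, 15.3% in 2, 28.4% in 1 and 1.2% in all 4.

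Other genes of the same machinery were counted in the same way. In iWAT, of 35 further mitotic genes, 33 were called lower in MetR_CE (median -1.67), 12 in MetR_RT and 4 in Ctrl_CE, and of 25 further replication genes 12, 9 and 3. The backgrounds of genes called lower are those given above for iWAT (14.4%, 7.36% and 9.94%), and the counts for Ctrl_CE are near the last of them. Cdca8, the borealin subunit of the passenger complex, fell in MetR_CE with a log2 fold change of -2.59 ± 0.38 (SE, adjusted p = 6.3e-06), and so did its partner Incenp with -1.21 ± 0.18 (SE, adjusted p = 7.7e-06). Of 8 G1 cyclins and their kinases 4 were lower and 1 higher in MetR_CE, and Cdk4 changed by -0.59 ± 0.09 (SE, adjusted p = 4.6e-06). Of 17 cell cycle inhibitors 1 was lower, a share under the background, and none higher.

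In eWAT 15 of the 35 further mitotic genes and 8 of the 25 further replication genes were lower in MetR_CE than in Ctrl_CE (background 2.12%), and without Ctrl_CE replicate 3 these counts were 6 and 5. Against Ctrl_RT the eWAT calls of these lists were few, among them the contractile ring protein Anln in Ctrl_CE (-1.04 ± 0.21 (SE, adjusted p = 0.0059)), E2f2 in MetR_CE (-1.29 ± 0.28 (SE, adjusted p = 0.013)) and the stress-induced inhibitor Gadd45a in Ctrl_CE (1.58 ± 0.31 (SE, adjusted p = 0.0051)). In liver 7 of the 35 further mitotic genes were lower and 1 higher in MetR_CE (background 7.22% and 6.25%), and 7 were lower in MetR_CE than in Ctrl_CE (background 4.1%), or 4 without Ctrl_CE replicate 2. The Cdk inhibitor p21, Cdkn1a, fell in MetR_CE livers (-3.58 ± 0.65 (SE, adjusted p = 6.5e-05)), Ccnd2, a D cyclin, rose in Ctrl_CE (0.82 ± 0.14 (SE, adjusted p = 3.5e-05)), and Ccnf, a cyclin of a ubiquitin ligase, fell there (-0.80 ± 0.12 (SE, adjusted p = 5.0e-06)).

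In iBAT, 5 of 35 further mitotic and 7 of 25 further replication genes were lower in MetR_CE and none higher (background 10.3% lower), and 5 of each were lower and 1 of each higher in Ctrl_CE (background 9.72% lower). The mitotic shares are near these backgrounds. The D cyclin Ccnd1, which links growth signals to G1, rose by 2.38 ± 0.28 (SE, adjusted p = 7.5e-08) in Ctrl_CE and 1.59 ± 0.27 (SE, adjusted p = 2.8e-05) in MetR_CE. The inhibitors Cdkn1b (p27) and Cdkn2d (p19) fell in Ctrl_CE, with log2 fold changes of -0.72 ± 0.07 (SE, adjusted p = 3.3e-09) and -0.76 ± 0.09 (SE, adjusted p = 1.5e-07). Of the 16 inhibitors tested in iBAT, 4 were lower in Ctrl_CE and 4 in MetR_CE, and none was higher.

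The sums of stromal progenitor markers and of mitotic members were also compared among libraries within groups, and the Pearson correlation passed an adjusted p of 0.05 in eWAT and iBAT while the Spearman correlation passed in no tissue. After subtraction of group means, the log2 summed levels of the mitotic members and of the stromal markers had a Pearson r of 0.689 in eWAT (permutation p = 0.00039, adjusted over 20 relations 0.0078) and a Spearman rho of 0.5852 (adjusted p = 0.0582), over 24 libraries. Without the 2 libraries farthest from the median of the marker sum r was 0.607. In iBAT, over 26 libraries, r was 0.55 (permutation p = 0.0037, adjusted 0.037) with a rho of 0.502 (adjusted p = 0.0955), and 0.411 without 2 libraries. In iWAT r was 0.474 (adjusted permutation p = 0.0664), rho 0.388 (adjusted p = 0.238) and r without 2 libraries 0.335. In liver the relation with macrophage markers had an r of 0.479 (adjusted permutation p = 0.0663), a rho of 0.401 (adjusted p = 0.238) and an r of 0.323 without 2 libraries. The remaining 16 relations, with B and T cell, macrophage, endothelial, stromal and male germ cell markers, did not pass an adjusted p of 0.05 by either measure. Both axes come from the same library, so its quality and depth are shared.

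**Figure D5:**
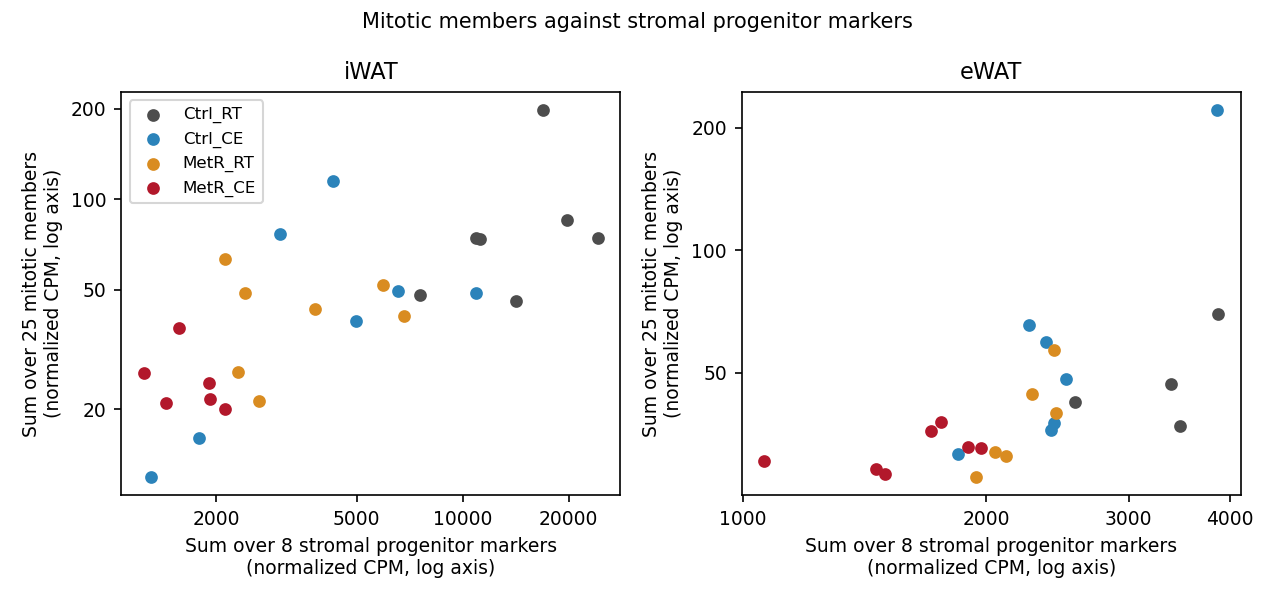
Summed level of the 25 mitotic members against that of 8 stromal progenitor markers (CPM, both axes log) in each library used of iWAT and eWAT, coloured by group. In iWAT the MetR_CE libraries lie at mitotic sums of 19.98 to 37.35 CPM, below every Ctrl_RT library on both axes, while 2 Ctrl_CE libraries lie lower still in mitotic sum (11.89 and 16.03 CPM).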

How the data were processed

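PolyA RNA libraries of 110 tissue samples were analysed from whole-number counts per Ensembl gene, deposited by the authors and not normalized. The methods of the study name STAR 2.7.9a and featureCounts 2.0.3 on mm10, and in parallel Salmon 1.9.0; the names of the deposited tables point to Salmon. Gene symbols were matched for 51948 of 56884 rows. The members and the other gene lists were chosen with earlier results of these data known.

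Genes with at least 10 counts in total were tested per tissue with edgeR 4.0.16 (R 4.3.3; TMM, quasi-likelihood test) under diet, temperature and their interaction, with p-values adjusted by Benjamini-Hochberg over all genes tested. Calls needed a change of 1.5-fold or more beside an adjusted p under 0.05. Levels are CPM normalized by TMM. Log2 fold changes are those of the edgeR fit at its default prior count. The SE given with them is the absolute log2 fold change divided by the square root of the F statistic of the test. It is thus an approximation. A prior count of 2 was used only for the log2 levels behind the correlation of same-numbered libraries. A sum of CPM over a list is led by its most abundant genes. Differences between tissues were tested in joint edgeR fits, which did not model the shared mouse. As alternatives, limma 3.58.1 with the mouse as a block was used there and DESeq2 1.42.0 in the fits per tissue. The edgeR fit of each tissue was first run on simulated data, with 2-fold changes placed in Ctrl_CE against Ctrl_RT. Recovery of the changed genes was lowest for eWAT (59.5%) and highest for liver (95.0%), with iWAT at 86.0% and iBAT at 93.0%. For the joint fits, the simulated difference was iBAT minus iWAT for Ctrl_CE, with 68.5% recovered. No recovery is given for other comparisons. In all of these simulations the changes were placed only in genes of higher expected counts, and counts were drawn at the dispersion trend. The mean counts of the 35 members had a median of 10.6 in liver and 12.7 in iBAT. The recoveries therefore do not apply to the shallowly covered members there. Correlations used 100000 permutations and a pseudocount of 0.01.

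Groups followed the sample titles. The study states how many libraries it left out, not which. They were identified as the subset of libraries whose mean normalized counts best matched those of the study's source data (median deviation 0.2371% against 1.081% for the next subset in iBAT, 0.1523% against 0.6515% in eWAT): Ctrl_CE replicate 5 of iBAT, and Ctrl_RT replicates 2, 4 and 5 and MetR_RT replicate 7 of eWAT. Replicate numbers did not pair the samples. Named were Mki67, Top2a, Ccnb1, Mcm2, Pcna, Ccne1 and, per tissue and comparison, up to 6 called members with the smallest adjusted p in each direction; of the other lists, up to 3 called genes per tissue. Other members named were chosen after their values were seen.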

Additional observations from a re-analysis of the deposited data

Results flagged for a closer look

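Of 128 sets of libraries checked (6 members and 2 sums in each group of each tissue), 23 held a library whose gap to the others was large for the range of its group; chance gives about 1 in 20. In eWAT, Ctrl_CE replicate 3 was highest in its group for Mki67 (27.6 CPM, next 7.43), Top2a (28.4, next 7.32), Ccnb1 (3.69, next 1.12), Mcm2 (20.3, next 10.6), Pcna (33.9, next 23.8), Ccne1 (8.53, next 4.49), the summed mitotic members (221, next 65.7) and the summed replication members (177, next 91.8), and MetR_RT replicate 2 for Mcm2 (8.74, next 7.21). In iWAT, Ctrl_RT replicate 1 was highest for the mitotic sum (197, next 85.4), Mki67 (20.98, next 9.32), Top2a (22.3, next 9.09) and Ccnb1 (5.38, next 1.61). In MetR_CE of iWAT, replicate 4 was highest for the mitotic (37.3, next 26.4) and replication sums (77.2, next 66.3), and in Ctrl_CE replicate 5 for Ccnb1 (2.74, next 0.899) and Pcna (25.3, next 19.7).

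In liver, MetR_RT replicate 1 was highest for Top2a (1.92 CPM, next 0.723) and replicate 2 for Mcm2 (5.39, next 3.31). In iBAT, Mki67 was lowest in Ctrl_RT replicate 4 (0.0782, next 0.43) and highest in Ctrl_CE replicate 3 (2.19, next 0.872) and MetR_CE replicate 5 (2.02, next 0.572), and Top2a was highest in MetR_CE replicate 5 (1.76, next 0.817). Of these libraries, several were high for more than 1 member, and members of a library share its RNA. Others stood apart for a single member. Ctrl_CE replicate 3 was the same mouse in iBAT and eWAT, and MetR_RT replicate 2 the same in liver and eWAT. MetR_CE replicate 5 of iBAT was the same mouse as replicate 4 of iWAT.

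Members differed between tissues by the test of the difference as follows. For Ctrl_CE against Ctrl_RT the number was 3 between liver and iBAT, 11 between liver and iWAT, 1 between liver and eWAT, 9 between iBAT and iWAT, 1 between iBAT and eWAT and 2 between iWAT and eWAT. For MetR_RT it was 1 between liver and iBAT, 5 between liver and iWAT and 2 between iBAT and iWAT. For MetR_CE it was 3 between liver and iBAT, 8 between liver and iWAT, 14 between iBAT and iWAT, 1 between iBAT and eWAT and 5 between iWAT and eWAT.

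In eWAT libraries left out by the study, the mitotic sums of Ctrl_RT replicates 4 and 5 and of MetR_RT replicate 7 were 298, 622 and 447 CPM, above the highest Ctrl_RT library used, 71.5 CPM in the same normalization.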

How the results depend on the processing

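No call of a member changed direction under any alternative run. The counts of called members that moved by over 1.5 times were these, with the cause not tested. In liver, Ctrl_CE against Ctrl_RT gave 8 by adjusted p alone, 3 with no filter and 3 without Ctrl_CE replicate 2; MetR_RT gave 5 by adjusted p alone and 5 by DESeq2; MetR_CE against MetR_RT gave 2 by adjusted p alone, by DESeq2 and with no filter, and 0 with filterByExpr; MetR_CE against Ctrl_CE gave 8 with filterByExpr. In iBAT, Ctrl_CE gave 2 with groups by tag and 1 without Ctrl_CE replicate 3; MetR_CE gave 5 by adjusted p alone; MetR_CE against MetR_RT gave 3 by adjusted p alone and 0 by tag; MetR_CE against Ctrl_CE gave 0 by tag and 1 with no filter, without the 3 tag libraries or without Ctrl_CE replicate 3. In iWAT, leaving out Ctrl_RT replicate 1 gave 1 in Ctrl_CE, 6 in MetR_RT and 4 for MetR_CE against Ctrl_CE; that comparison gave 2 by adjusted p alone, 6 by DESeq2, 3 with RLE size factors and 4 with filterByExpr; MetR_CE against MetR_RT gave 3 by DESeq2 and 0 with no filter. In eWAT, Ctrl_CE gave 1 by DESeq2 and 1 with all libraries; MetR_CE gave 1 by DESeq2, 20 with all libraries and 0 to 4 on leaving out 1 library (4 without Ctrl_CE replicate 3); MetR_CE against Ctrl_CE gave 3 with all libraries and 8 to 19 on leaving out 1 library. With all eWAT libraries the median of all genes was -0.18 in MetR_CE and -0.21 in Ctrl_CE (log2). Between tissues, limma with the mouse as a block gave 2 for liver and eWAT in MetR_CE, and 1 in MetR_RT and 9 in MetR_CE for iBAT and iWAT.

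Replicate numbers shared by groups did not pair the samples: the median correlation of same-numbered libraries was -0.00537 (liver), -0.00247 (iBAT), 0.052 (iWAT) and 0.0842 (eWAT). With the replicate block, 11 members were called in eWAT for MetR_CE against Ctrl_CE and 0 in iWAT for the same comparison, and other counts stayed within 1.5 times. Leaving out Ctrl_RT replicate 1 of iWAT, Ctrl_CE replicate 2 of liver, and Ctrl_CE replicate 3 of iBAT and of eWAT was chosen after seeing the data. Low counts limit liver and iBAT, where 16 and 14 members had a mean of under 10 counts.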

Other observations

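Ctrl_CE replicate 4 was the same mouse in each of the 4 tissues. It had the highest summed level of neutrophil markers of its group in each, between 32.4 and 54.1 CPM. The median of Ctrl_CE was 0.445 to 1.66 CPM. Epididymis and ciliated cell markers in eWAT reached 1300 CPM in 1 MetR_RT library that was kept (replicate 2), the library with the highest Mcm2 of its group.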
